A study of Mus musculus with 4 samples.

Results

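Carotenoid and retinoid metabolism in liver was represented by 9 genes, Bco2, Rbp4, Lrat, Cyp26a1, Cyp26b1, Dhrs3, Rdh10, Rdh11 and Rdh16, taken by symbol from a table of 22155 gene symbols. All 9 were found and all 9 passed the filter on low counts, as did 13309 symbols in all. The libraries came from liver of wild-type C57BL/6 mice aged 8 to 10 weeks, all kept for 10 days on a Lieber-DeCarli liquid diet containing 5% ethanol. In the gavage group (2 libraries) the mice also received 1 oral ethanol dose of 5 g/kg, 9 h before the liver was taken, and they were set against mice on the ethanol diet alone (2 libraries). The groups follow the titles and treatment tags, while the longer treatment text, which describes the binge, is identical for all 4 libraries. The labels give neither the sex of the mice, nor any sham gavage, nor the hour of death in the group on ethanol alone. Nothing in the labels ties each library to its own animal, and each p-value then reflects the spread among these 4 libraries alone, which may be technical. The members were chosen by role with their counts in this same comparison of gavage with ethanol alone in view, and their differences are therefore a description without a test.

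Retinoids are vitamin A and its derivatives. Dietary carotenoids are cut by BCO1 into retinal, which is reduced to retinol, esterified by LRAT and stored in droplets of hepatic stellate cells, while BCO2 cuts carotenoids off-centre. Hepatocytes return retinol to the blood bound to RBP4, retinol dehydrogenases and retinal reductases interconvert retinol and retinal, and retinal dehydrogenases make retinoic acid, the ligand of the RAR receptors. CYP26 enzymes break retinoic acid down, and their genes are themselves induced by it, which makes Cyp26a1 and Rarb classic retinoic acid targets. Ethanol is handled by some of the same alcohol and aldehyde dehydrogenases that act on retinol and retinal.

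The RAR response element is a direct repeat of 2 hexamers with 5 bases between them. RefSeq promoter windows of the GRCm38.p6 build, cut to the 250 bases before each annotated start, were searched on both strands for 2 hexamers in the same orientation, each being AGGTCA or the variant AGTTCA, the variant GGGTCA or the variant GGTTCA, with 1, 2 or 5 bases between them. Windows were found for 8 of the 9 genes, all but Rdh10. The repeat with 5 bases between the hexamers occurred in 29 of 32851 windows (0.0883%), the one with 1 base in 0.164% and the one with 2 bases in 0.174%. Among the members' windows, Cyp26a1 held it, and among 46 other pathway genes with a window Rarb, the gene of a retinoic acid receptor, held it too. None of the members' 13 windows held the repeats with 1 or 2 bases (of the other pathway genes Bco1 held the one with 1 base), and no hit overlapped another. The Cyp26a1 and Rarb windows are shown because they hold the repeat, and 1 window each of Bco2 and Dhrs3 because these members differed most between the groups. Bco2 had 2 windows and Dhrs3 had 3, and their other windows are not shown. Capitals mark the hexamers, each sequence is on the strand of its gene, and Bco2 and Dhrs3 had no match in the letters searched.
Cyp26a1 (chr19:37697558-37697807, plus strand): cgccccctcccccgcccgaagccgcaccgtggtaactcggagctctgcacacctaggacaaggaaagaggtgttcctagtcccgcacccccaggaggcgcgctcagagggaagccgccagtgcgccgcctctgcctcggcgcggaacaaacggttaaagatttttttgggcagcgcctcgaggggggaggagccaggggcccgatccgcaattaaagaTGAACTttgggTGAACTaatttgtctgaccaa
Rarb (chr14:16575477-16575726, minus strand): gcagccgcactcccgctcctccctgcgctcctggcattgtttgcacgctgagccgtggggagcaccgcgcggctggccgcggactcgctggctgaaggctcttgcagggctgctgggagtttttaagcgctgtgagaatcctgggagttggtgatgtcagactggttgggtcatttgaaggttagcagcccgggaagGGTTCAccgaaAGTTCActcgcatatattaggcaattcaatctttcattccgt
Bco2 (chr9:50555139-50555388, minus strand): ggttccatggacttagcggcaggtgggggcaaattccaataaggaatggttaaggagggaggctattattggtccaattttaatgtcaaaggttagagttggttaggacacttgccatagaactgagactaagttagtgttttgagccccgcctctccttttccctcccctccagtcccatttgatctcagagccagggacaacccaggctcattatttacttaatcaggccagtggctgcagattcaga
Dhrs3 (chr4:144892577-144892826, plus strand): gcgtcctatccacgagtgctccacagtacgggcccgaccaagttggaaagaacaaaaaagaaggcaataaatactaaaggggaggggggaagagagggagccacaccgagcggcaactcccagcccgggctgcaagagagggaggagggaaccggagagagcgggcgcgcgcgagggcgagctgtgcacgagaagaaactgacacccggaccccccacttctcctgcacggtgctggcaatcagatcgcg
In the Cyp26a1 window the repeat lies in reverse orientation, 32 to 16 bases before the start, and in the Rarb window it lies in the orientation of the gene, 53 to 37 bases before the start. A match of letters describes the sequence and was not measured as a bound site.

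Total counts lay between 28791281 and 30347558 per library, and a floor of 3 counts equals 0.0955 to 0.110 CPM (counts divided by the TMM-scaled library size and brought to a common total), which covers counting error only. The 9 hepatocyte markers, Alb among them, were abundant in all 4 libraries, with sums of 100455 and 122789 CPM after gavage, against 147390 and 127859 CPM with ethanol alone. The libraries numbered 1 in each group carried skeletal muscle transcripts. The 7 muscle markers summed to 766 and 1.16 CPM in gavage replicates 1 and 2, against 348 and 10.6 CPM with ethanol alone, in the same order. Of the adipose markers, Adipoq, Plin1, Retn, Cfd and Lep, picked after their values were seen, followed the same order, with sums of 43.5 and 0.0664 CPM against 33.6 and 0.033 CPM. Fabp4 also followed it, with 54.8 and 12.1 CPM against 27.4 and 7.93 CPM. Cidec did so with ethanol alone (3.66 and 0.529 CPM) but not after gavage (15.7 and 33.9 CPM). The whole list of 8 adipose markers, most of whose reads came from the liver-expressed Car3, summed to 663 and 604 CPM in gavage libraries and to 2040 and 1933 CPM with ethanol alone. The 10 Kupffer cell markers summed to 370 and 434 CPM against 657 and 619 CPM, the 9 sinusoidal endothelial markers to 533 and 577 CPM against 598 and 645 CPM, and the 10 neutrophil markers to 17.9 and 6.51 CPM against 4.98 and 4.53 CPM. The part of these cells in the results below was not tested, and in whole liver fewer cells of a type and less RNA per cell cannot be told apart.

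Among the 9 members, the gene of carotenoid cleavage had the largest fitted difference. Bco2 (beta-carotene oxygenase 2, chromosome 9, 50533087 to 50555181 of GRCm38) encodes the mitochondrial enzyme that cuts carotenoids off-centre. Its level was 9.81 and 10.1 CPM after gavage, against 34.5 and 29.2 CPM with ethanol alone. Both gavage values lay below both values of ethanol alone, and the gavage libraries differed from each other by far less than the groups did. The group means were 9.97 ± 0.228 CPM after gavage and 31.8 ± 3.76 CPM with ethanol alone (SD, n = 2 each), a log2 fold change of -1.67 (SE 0.17) in the fit over all genes. Over all settings tried, including each library left out, the value stayed between -1.84 and -1.53.

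Bco1, which cuts beta-carotene in its centre to give retinal, lay in the opposite direction. It had 25.4 and 30 CPM after gavage, against 7.58 and 10.4 CPM with ethanol alone, and the groups did not overlap. Its log2 fold change was 1.63 (SE 0.23, adjusted p = 0.12 over all genes, edgeR quasi-likelihood F-test, Benjamini-Hochberg), so it did not pass that test, in which no gene did. It was called by DESeq2 (adjusted p = 3.28e-06), by edgeR's likelihood-ratio test (adjusted p = 9.88e-05) and with a block for the replicate number. Per kb of its longest coding transcript, the level of Bco1 divided by that of Bco2 was 2.35 and 2.68 in the gavage libraries, against 0.199 and 0.322 with ethanol alone. Bco1 was thus the more abundant of the pair in each gavage library and the less abundant in each library of ethanol alone. A gene on the other strand overlaps 161 of the 2118 exon bases of Bco2, and without a stated strand setting its reads cannot be separated. Scarb1, the receptor that takes up carotenoids and high-density lipoprotein, had 99.7 and 148 CPM after gavage, against 228 and 258 CPM with ethanol alone, and did not pass (adjusted p = 0.192 in edgeR).

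**Figure D1:**
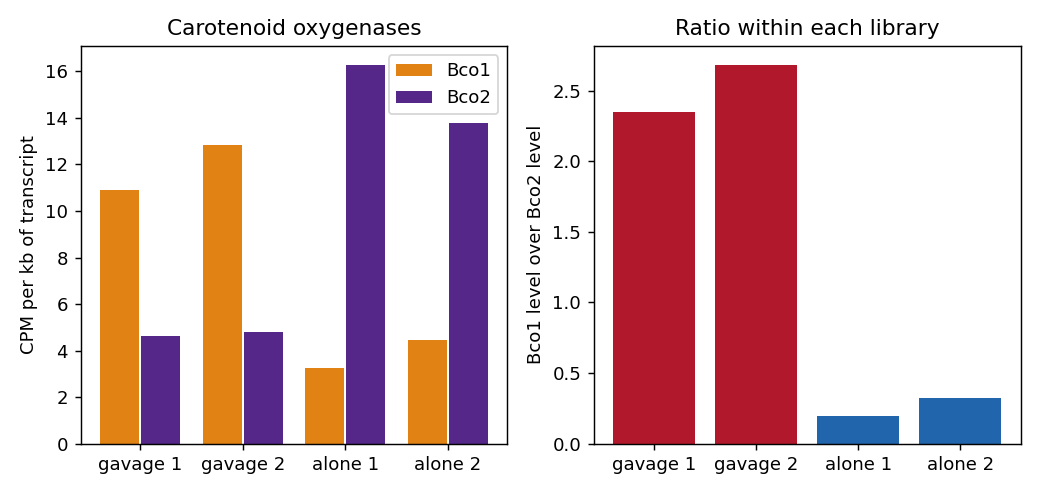
Left, level of Bco1 (orange) and Bco2 (purple) in CPM per kb of transcript in each library, gavage 9 hour replicates 1 and 2 and then ethanol alone replicates 1 and 2. Right, the level of Bco1 over that of Bco2 in each library, which is 2.35 and 2.68 after gavage and 0.199 and 0.322 with ethanol alone.

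Retinal reduction and retinol oxidation are carried out by short-chain dehydrogenases, of which 4 were members. Dhrs3 (chromosome 4, 144892827 to 144928209), the retinal reductase that limits retinoic acid formation and is itself induced by retinoic acid, had 71.7 and 71.3 CPM after gavage, against 240.5 and 165 CPM with ethanol alone. The gavage values were nearly equal and lay below both values of ethanol alone, which differed from each other. The means were 71.5 ± 0.305 and 203 ± 53 CPM (SD, n = 2 each), and the log2 fold change was -1.50 (SE 0.26). Rdh11 (chromosome 12, 79174337 to 79192293), also a reductase of retinal in the endoplasmic reticulum, had 60.7 and 41.8 CPM after gavage, against 116 and 80.1 CPM with ethanol alone. The groups did not overlap, and replicate 1 was the higher library within each of them. Its log2 fold change was -0.93 (SE 0.29).

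Rdh10 and Rdh16 work chiefly in the other direction, as retinol dehydrogenases. Rdh10 (chromosome 1, 16105774 to 16133734), whose product supplies retinal for retinoic acid synthesis and forms a complex with DHRS3, had 28.6 and 33.1 CPM after gavage, against 33.1 and 41.7 CPM with ethanol alone. The higher gavage value and the lower value of ethanol alone nearly touched, at 33.05 and 33.13 CPM, and the log2 fold change was -0.28 (SE 0.19). Rdh16 (chromosome 10, 127801152 to 127846565), a liver-enriched enzyme that acts on retinol and on steroids, had 117 and 82.5 CPM after gavage, against 115 and 150 CPM with ethanol alone. The groups overlapped, since gavage replicate 1 lay above replicate 1 of ethanol alone. The log2 fold change of Rdh16 was -0.41 (SE 0.27), and it was -0.86 without both libraries numbered 1, a setting chosen after the data were seen. Per kb, the reductase Dhrs3 stood at 3.86 and 3.31 times the level of its partner Rdh10 in the gavage libraries, against 11.1 and 6.09 times with ethanol alone. Dhrs3 was the more abundant of the pair in every library.

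**Figure D2:**
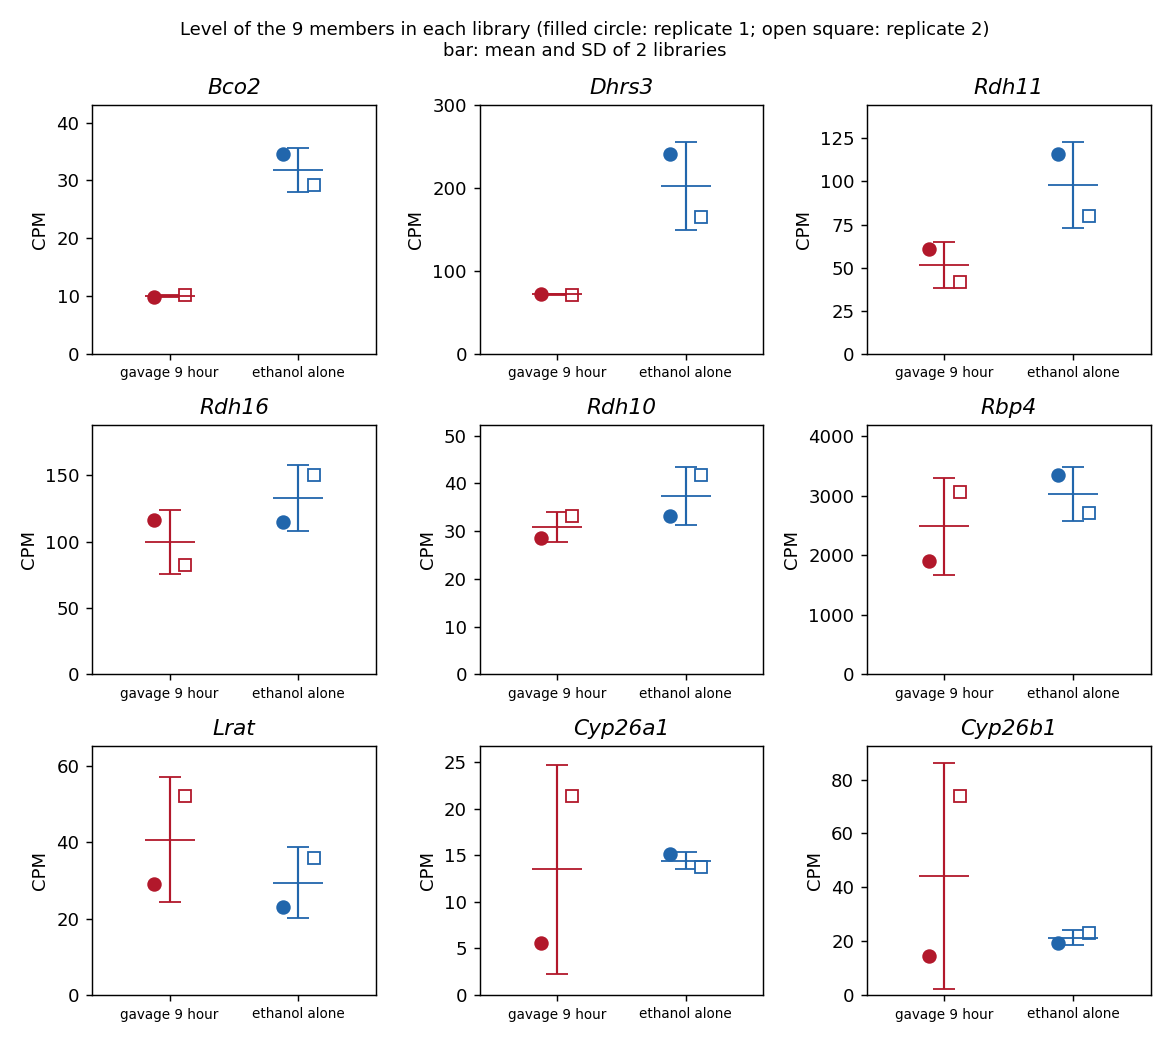
CPM of each of the 9 members, with gavage 9 hour in red and ethanol alone in blue, replicate 1 as a filled circle and replicate 2 as an open square, and the mean and SD of 2 libraries as bars. Bco2, Dhrs3, Rdh11 and Rdh10 show no overlap of the groups, and the gavage libraries stand far apart for Cyp26a1 and Cyp26b1.

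Rdh16 sits in a cluster of related genes on chromosome 10, and levels can be set side by side only per kb of transcript. Over 15 short-chain dehydrogenases of retinol or retinal, the summed level was 546 and 682 CPM per kb after gavage, against 1262 and 1032 CPM per kb with ethanol alone. Hsd17b6, also listed for interconversion, was left out of this sum, and had 34 and 70.1 CPM per kb against 144 and 133 CPM per kb. The largest part belonged to Rdh7, which held 45.4% and 49.2% of the sum in the gavage libraries, against 59.2% and 55.6% with ethanol alone. Rdh16f2 came next, with 23.3% and 25.3% after gavage and 16.5% and 19.4% with ethanol alone. The members held far less: Dhrs3 had 5.62% and 4.48% against 8.15% and 6.86%, and Rdh10 at most 1.46% in any library. In CPM, Rdh7, which oxidises retinol and androgens, had 416 and 563 after gavage, against 1254 and 963 with ethanol alone (log2 fold change -1.18, SE 0.28). Rdh7 did not pass edgeR's quasi-likelihood test (adjusted p = 0.165). It was called by DESeq2 (adjusted p = 0.0005) and by edgeR's likelihood-ratio test (adjusted p = 0.0386). Rdh16f2 had 161 and 218 CPM against 264 and 253 CPM, without overlap (adjusted p = 0.366 in edgeR). Rdh9 had 3.85 and 6.21 CPM against 7.58 and 6.24 CPM, Rdh1 had at most 13 counts in any library and Rdh19 at most 4.

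Reads could have been split among these copies. Of the 50-base stretches in annotated Rdh16 transcripts, 14.5% also occurred in transcripts of another gene, most often Rdh9. The share was 12.9% for Rdh7, 10% for Rdh16f2 and 68.3% for Rdh9. Of the 3590 exon bases of Rdh9, 2302 overlap Rdh16f1, a gene on the same strand with a symbol of its own in the table. Of the 6217 exon bases of Rdh16, 381 overlap Rdh18-ps on the same strand, which has no symbol there. Reads in such overlaps cannot be assigned to 1 gene, so the counts of Rdh9 may fall short of its level. The other members shared none of their 50-base stretches with another gene, except Bco2 with 5.65%, in its overlapping antisense gene.

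**Figure D3:**
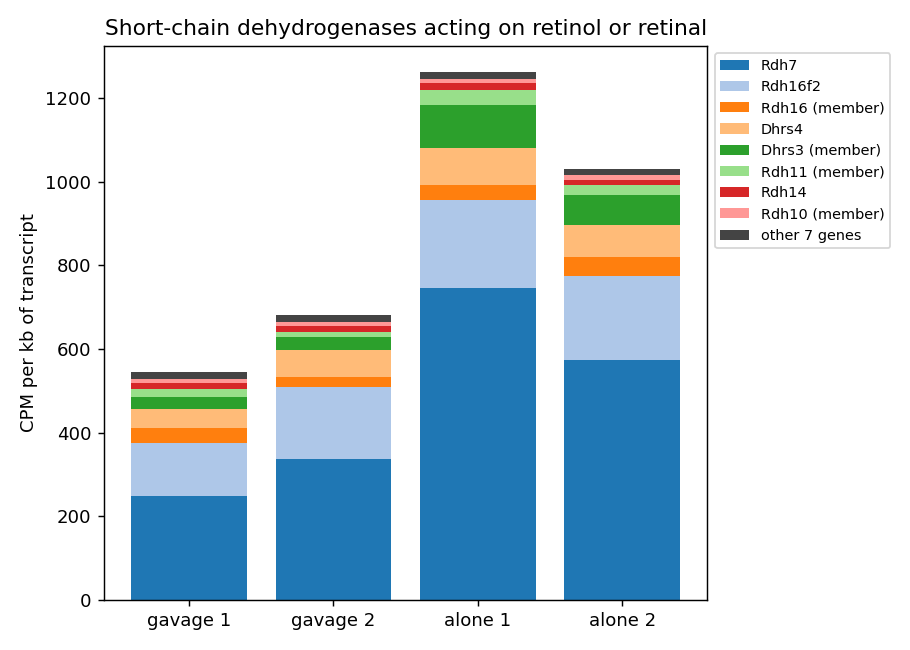
Stacked level, in CPM per kb of transcript, of 15 short-chain dehydrogenases that act on retinol or retinal in each library, gavage 9 hour left and ethanol alone right. Rdh7 makes up the largest part of each bar, and the sums are 546 and 682 CPM per kb after gavage and 1262 and 1032 CPM per kb with ethanol alone. Hsd17b6 is not included.

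Of the retinol carriers, Rbp4 (chromosome 19, 38116629 to 38125281), the plasma retinol-binding protein made by hepatocytes, was the most abundant member. It had 1910 and 3065 CPM after gavage, against 3351 and 2708 CPM with ethanol alone. The groups overlapped, with gavage replicate 1 the lowest of the 4 libraries. The log2 fold change was -0.28 (SE 0.33), and without gavage replicate 1 it was 0.02. Ttr, transthyretin, which carries RBP4 in plasma, had 3064 and 3350 CPM after gavage, against 6537 and 5394 CPM with ethanol alone. Those groups did not overlap, and the difference was -0.90 on the log2 scale (SE 0.25, adjusted p = 0.195 in edgeR). Per kb, Ttr stood at 1.57 and 1.07 times the level of Rbp4 after gavage, against 1.91 and 1.95 times with ethanol alone. The order of the pair after gavage depends on the length used: with the mean transcript length Rbp4 averaged 3221 CPM per kb in the gavage libraries and Ttr 2704 CPM per kb. Stra6l, the RBP4 receptor of liver, had 205 and 332 CPM against 231 and 318 CPM, with overlap. Stra6, the RBP4 receptor of the eye and other tissues, had 0 and 0 counts in the gavage libraries and 2 and 0 counts with ethanol alone, at or under the floor.

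Lrat (chromosome 3, 82892579 to 82903973) encodes lecithin retinol acyltransferase, which forms retinyl esters and marks the stellate cells that store them. It had 29.1 and 52.2 CPM after gavage, against 22.9 and 36 CPM with ethanol alone. Replicate 2 was the higher library within each group and the groups overlapped. The log2 fold change was 0.46 (SE 0.36), and without gavage replicate 2 it was -0.02. The 19 stellate cell markers, Lrat included, summed to 878 and 875 CPM after gavage, against 878 and 798 CPM with ethanol alone, and none of them was at 0 in all libraries. Of the 19, 12 lay higher and 7 lower, with a median log2 fold change of 0.10, beside 0.02 over all tested genes. Of the other 18 markers, only Reln, Hgf, Pdgfra, Vipr1 and Bmp5, named after their values were seen, were like Lrat higher in replicate 2 than in replicate 1 of both groups. Des, Dcn, Cygb, Gfap, Col1a1 and Col3a1 were lower in replicate 2 than in replicate 1 of both groups. The order of the remaining markers differed between the groups. Of the ester hydrolases, Ces1d, a carboxylesterase, had 352 and 416 CPM after gavage, against 680 and 913 CPM with ethanol alone (adjusted p = 0.171 in edgeR). Pnpla3, a lipase that hydrolyses retinyl esters in human stellate cells, had 37.3 and 6.18 CPM against 5.27 and 6.11 CPM, so that gavage replicate 1 alone stood apart.

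Retinoic acid breakdown differed more between the gavage libraries than between the groups. Cyp26a1 (chromosome 19, 37697798 to 37701536), the main retinoic acid hydroxylase of liver, had 5.54 and 21.4 CPM after gavage, against 15.1 and 13.7 CPM with ethanol alone. The gavage libraries were the lowest and the highest of the 4, while those of ethanol alone lay close together between them. Cyp26b1 (chromosome 6, 84571414 to 84593908), a second retinoic acid hydroxylase, had 14.6 and 74.1 CPM after gavage, against 19.4 and 23.2 CPM with ethanol alone. Its gavage libraries again held the lowest and the highest value. The log2 fold changes were -0.10 (SE 0.61) for Cyp26a1 and 1.06 (SE 0.72) for Cyp26b1. Without gavage replicate 1 they were 0.57 and 1.80, and without gavage replicate 2 they were -1.38 and -0.55, so that 1 gavage library decided the direction of each.

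Rarb, a retinoic acid target like Cyp26a1, had 3.85 and 7.57 CPM after gavage, against 5.24 and 5.78 CPM with ethanol alone. Genes on the other strand overlap 2020 of the 5265 exon bases of Rarb, and without a stated strand setting their reads cannot be separated. Cyp26a1, Cyp26b1 and Rarb were each lowest in gavage replicate 1 and highest in gavage replicate 2. Dhrs3 and Rdh10 showed no such spread between these libraries, although Dhrs3 is also a retinoic acid target. Gavage replicate 1 was also the library with the most muscle transcript, and its part in these values was not tested. Cyp2c39, another cytochrome of retinoic acid breakdown, had 14.4 and 11.2 CPM after gavage, against 5.86 and 13.5 CPM with ethanol alone, and did not follow this order.

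**Figure D4:**
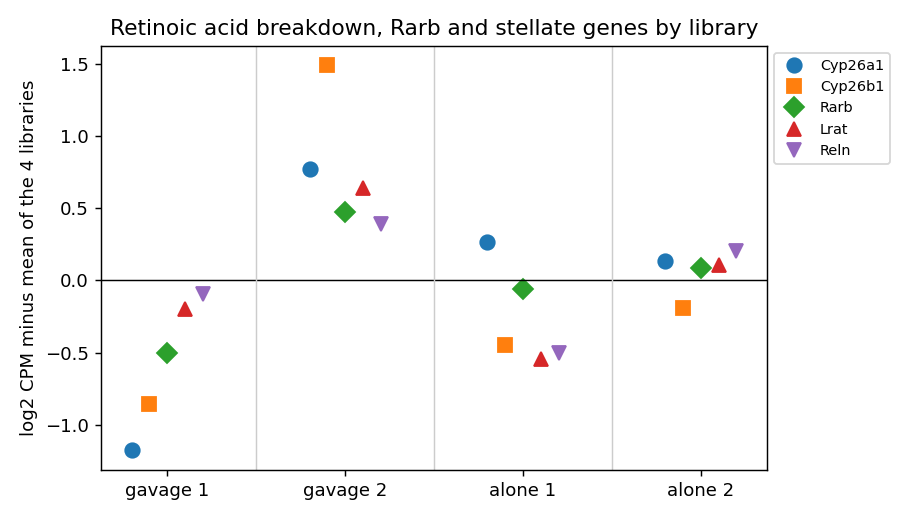
log2 CPM minus the mean over the 4 libraries for Cyp26a1, Cyp26b1, Rarb, Lrat and Reln, with gavage 9 hour libraries left and ethanol alone right. All 5 are highest in gavage replicate 2, at 0.77, 1.49, 0.47, 0.64 and 0.39, and Cyp26a1, Cyp26b1 and Rarb are lowest in gavage replicate 1, at -1.18, -0.86 and -0.50. Reln was picked after its values were seen, and most other stellate markers did not share its order.

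Per kb of the longest coding transcript, the members ranked with ethanol alone as Rbp4 at 2609 ± 392, Dhrs3 at 86.8 ± 22.7, Rdh16 at 41.3 ± 7.71 and Rdh11 at 30 ± 7.71 CPM per kb (SD, n = 2). Bco2 at 15 ± 1.77, Rdh10 at 10.4 ± 1.69, Cyp26a1 at 8.05 ± 0.529, Lrat at 5.5 ± 1.73 and Cyp26b1 at 4.73 ± 0.591 CPM per kb followed. The mean ± SD ranges of Lrat and Cyp26b1 overlapped, as did those of Rdh16 and Rdh11, although both library values of Rdh16 lay above both of Rdh11. With the mean in place of the longest transcript length, Cyp26b1 at 5.77 CPM per kb stood above Lrat. After gavage Rdh16 at 31 ± 7.5 and Dhrs3 at 30.6 ± 0.13 CPM per kb were nearly level, but with the mean transcript length Dhrs3 stood at 51.1 CPM per kb and Rdh16 was unmoved. In the gavage libraries Bco2, at 4.71 ± 0.108 CPM per kb, had the lowest mean of the 9. In gavage replicate 1, however, Cyp26a1 at 3.09 and Cyp26b1 at 3.24 CPM per kb lay below Bco2 at 4.63 CPM per kb.

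No gene passed the threshold of 0.05 in edgeR's quasi-likelihood test (0 of 13309, 0%), so the count of members called was 0 of 9. At an unadjusted p under 0.05 there were 3 members, all lower after gavage, beside 18.8% of all tested genes. DESeq2 called Bco2, Dhrs3 and Rdh11, where it called 9.79% of genes with an adjusted p, and edgeR's likelihood-ratio test called Bco2 and Dhrs3, where it called 4.13%. The groups did not overlap for 4 members, all with gavage below, beside 54.7% of tested genes without overlap and 27.2% with gavage below. As the members were picked with this comparison known, nothing is read from these shares. Of the 9, 2 lay higher and 7 lower, with a median log2 fold change of -0.28. With 2 libraries against 2, an exact permutation test of 1 gene could not go below p = 0.333.

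The rest of the pathway was taken as 65 further genes listed by role, 54 of them tested. Of these, 20 lay higher and 34 lower, with a median log2 fold change of -0.09, and edgeR's quasi-likelihood test called 0. At an unadjusted p under 0.05 there were 5 higher and 11 lower, beside 8.91% and 9.85% of all tested genes. DESeq2 called 4 higher (Bco1, Adh7 and Tgm2 among them) and 11 lower (Scarb1, Ttr, Ces1d, Rdh7, Adh4, Aldh1a1 and Rarres2 among them), beside 4.37% and 5.43% of genes with an adjusted p in DESeq2. The likelihood-ratio test called 2 higher and 4 lower, beside 2.14% and 1.98%. In the interconversion of retinol and retinal, the longest list, 15 of 18 tested genes, members included, lay lower with a median of -0.47. Of retinol transport and binding 6 of 7 lay lower, with a median of -0.28, and of ester formation and hydrolysis 8 of 10, with a median of -0.18. Beside these, 6428 of all 13309 tested genes lay lower, with a median of 0.02. Of the 9 hepatocyte markers 7 lay lower, with a median of -0.44. The 3 genes of interconversion that lay higher were Rdh5, Rdh13 and Adh7, named after their values were seen, and none passed the quasi-likelihood test. Retinoid receptors and co-regulators had 8 higher and 4 lower of 12 with a median of 0.08. The list of retinoic acid targets had 6 higher and 6 lower of 12 with a median of 0.01.

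Enzymes shared with ethanol were among these genes. Adh1, the main alcohol dehydrogenase of liver, which also oxidises retinol, had 1264 and 1789 CPM after gavage, against 2400.1 and 2448 CPM with ethanol alone (adjusted p = 0.276 in edgeR). Adh4, an alcohol dehydrogenase efficient with retinol, had 22 and 27 CPM against 160 and 81.8 CPM, or -2.30 on the log2 scale (SE 0.37). Adh4 did not pass edgeR's quasi-likelihood test (adjusted p = 0.133). It was called by DESeq2 (adjusted p = 1.03e-07), by edgeR's likelihood-ratio test (adjusted p = 2.67e-05) and with a block for the replicate number. Aldh1a1, which oxidises retinal to retinoic acid, had 262 and 577 CPM against 791 and 1044 CPM (adjusted p = 0.258 in edgeR). All 3 lay lower in both gavage libraries than in both libraries of ethanol alone, as did 27.2% of all tested genes. Adh7, an alcohol dehydrogenase of the same list, lay the other way, with 15.7 and 5.65 CPM against 3.29 and 2.35 CPM. It did not pass in edgeR's quasi-likelihood test (adjusted p = 0.192). It was called by DESeq2 (adjusted p = 0.012), by edgeR's likelihood-ratio test (adjusted p = 0.0486) and with a block for the replicate number. Aldh1a3, an extrahepatic enzyme of the same step, had only 84 and 33 counts against 22 and 12 counts.

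Of the receptors and targets, Rxra, the partner of many nuclear receptors in liver, had 473 and 535 CPM after gavage, against 469 and 488 CPM with ethanol alone, with overlap. Tgm2, the transglutaminase that retinoic acid induces, had 512 and 253 CPM against 139 and 175 CPM (adjusted p = 0.206 in edgeR), and Rarres2, the chemerin gene, had 226 and 318 CPM against 575 and 503 CPM (adjusted p = 0.188 in edgeR). These 2 targets thus lay in opposite directions. Neither passed the quasi-likelihood test, and DESeq2 called both, with an adjusted p of 0.011 for Tgm2 and 0.0036 for Rarres2. The log2 fold change of Tgm2 was 1.29 with all libraries and 0.69 without gavage replicate 1. That of Rarres2 was -0.98 with all libraries and -0.76 without gavage replicate 1.

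**Figure D5:**
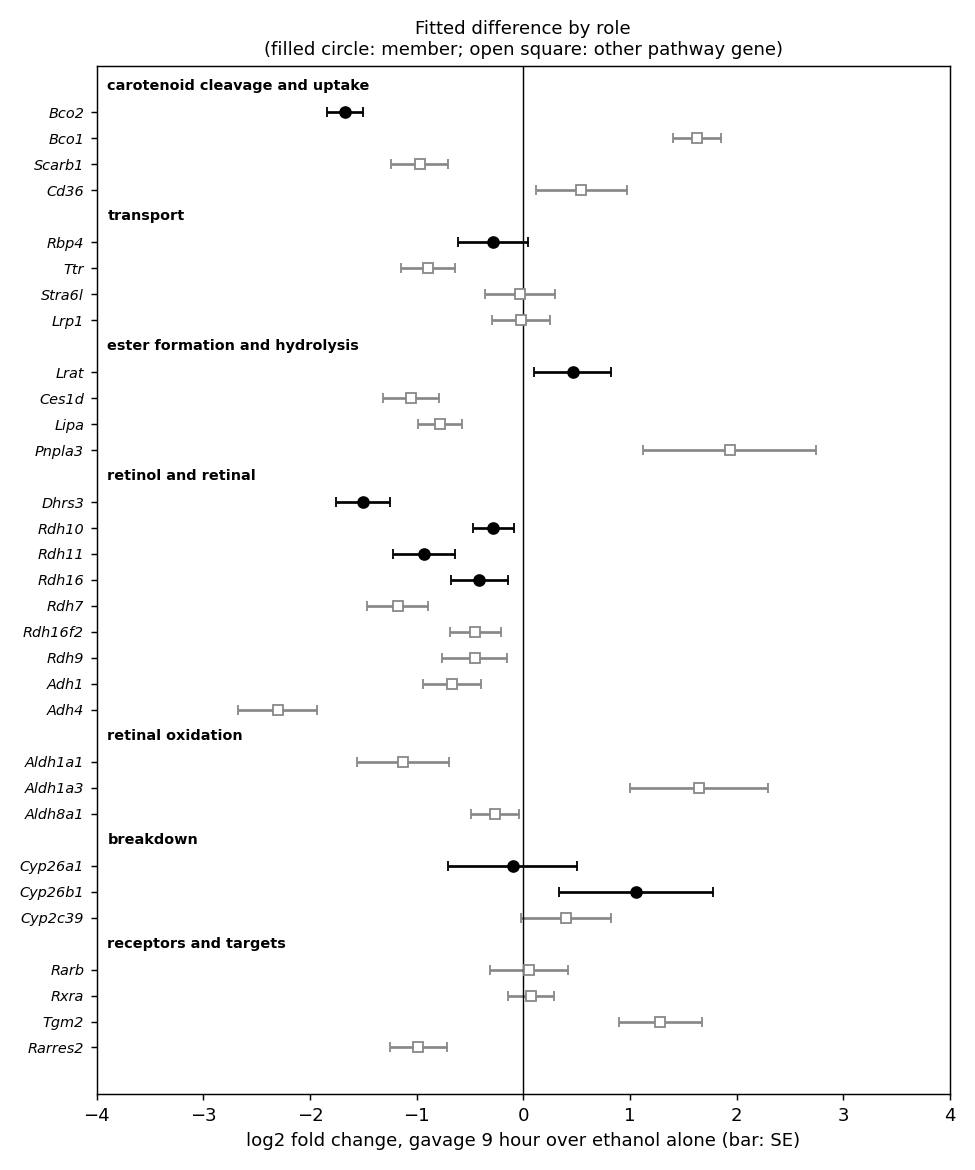
Fitted log2 fold change of gavage 9 hour over ethanol alone with its SE, for the members (filled circles) and other pathway genes (open squares), by role. Bco2 at -1.67 and Bco1 at 1.63 lie on opposite sides of 0, and the 9 genes of retinol and retinal interconversion drawn lie below 0, while Rdh5, Rdh13 and Adh7, not drawn, lie above it.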

How the data were processed

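Whole-liver RNA of 4 libraries (2 per group) was sequenced, and the authors deposited whole-number read counts per gene symbol, with a column for each library. Per the submitters' processing notes the build was GRCm38 and the tools included HTSeq, STAR 2.6.0a, edgeR and bcl2fastq 2.20.0.422, with no roles stated. For annotation, strand setting and multi-mapping reads, the choice was not given in the sources used. Replicates of a group differed beyond sampling noise (chi-square per degree of freedom 157 and 147). These counts were fitted by edgeR 4.0.16 under R 4.3.3: filterByExpr by group (minimum count 10, minimum total 15), TMM, and the 2-sided quasi-likelihood F-test with no covariate, adjusted by Benjamini-Hochberg. The SE is the absolute log2 fold change over the square root of F. The fit was tested on simulated data with less spread between replicates than these libraries had, so the outcome does not carry over to them. Alternatives were DESeq2 1.42.0, the likelihood-ratio test, other scalings and filters, a replicate block and each library left out. Transcript lengths and gene coordinates came from GENCODE for GRCm38, and promoter windows from RefSeq. Named were the members; of each role list the non-member with the highest mean CPM and the one with the largest absolute log2 fold change among tested, non-overlapping genes averaging 1 CPM or more; Rarb, Rxra, Stra6, Stra6l, Ttr, Bco1, Adh1, Adh4, Aldh1a1 and the copies of Rdh16; and the 3 genes nearest to Bco2 in profile (mean of at least 1 CPM, no Gm or Rik models). Members and lists were chosen with earlier results of these data known. Genes picked after their values were seen are said to be so. Some genes that the rule names are not reported here.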

Additional observations from a re-analysis of the deposited data

How the results depend on the processing

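The count of genes called was 0 in the quasi-likelihood test, with DESeq2 size factors, library totals, no filter or the stricter filter in place of the settings used. DESeq2 called 1177 genes, 3 members and 15 other pathway genes, and the likelihood-ratio test 549, 2 and 6. With each library left out, the counts ran from 0 to 31 genes, with 31 without gavage replicate 2 and 12 without replicate 2 of ethanol alone, and no member or other pathway gene was called. A block for the replicate number called 410 genes, 2 members (Bco2 and Dhrs3) and 4 other pathway genes. The deviations of same-numbered libraries from their group means correlated at r = 0.53 over 13198 genes, but with 2 pairs and no label of a shared animal or day the libraries share only a number.

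Bco2, Dhrs3, Rdh10, Rdh11 and Rdh16 stayed lower in all 12 alternatives. The fitted log2 fold change turned for Rbp4 (-0.67 to 0.018 with each library left out), Lrat (-0.024 to 0.83), Cyp26a1 (-1.38 to 0.57), Cyp26b1 (-0.55 to 1.80), Rarb (-0.52 to 0.46), Rxra (-0.024 to 0.16), Stra6l (-0.43 to 0.28), Rdh1 (-0.53 to 0.34) and Cyp2c39 (-0.11 to 1.07). Without both libraries numbered 1, chosen after the data were seen and with no test, it was 0.18 for Rbp4, 0.64 for Cyp26a1, 0.061 for Stra6l, 0.0078 for Rdh1 and -0.28 for Cyp2c39. The block gave -0.015 for Rarb and library totals 0.029 for Stra6l. The causes were not tested. With the mean in place of the longest transcript length, the level with ethanol alone was 3923 for Rbp4, 145 for Dhrs3, 39.7 for Rdh11 and 5.77 CPM per kb for Cyp26b1. Without Lrat, the log2 ratio of the summed stellate markers was 0.05, beside 0.07 with it.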

Other observations

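By their profile over the 4 libraries, the genes nearest to Bco2 among 11668 compared were Tmem218, Psen2 and Siva1, at Euclidean distances of 0.129, 0.141 and 0.199 in centred log2 CPM. Psen2 had 64.6 and 75.8 CPM after gavage, against 239 and 195 CPM with ethanol alone. Tmem218 had 1.18 and 1.10 CPM against 4.14 and 3.27 CPM, and Siva1 0.86 and 0.73 CPM against 2.75 and 2.31 CPM. The profiles share the same 4 libraries, so the likeness is a description of these samples.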
